A study of Mus musculus with 12 samples.

Results

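Interferon-stimulated genes were followed in basophils grown from marrow of C57BL/6J mice without mutation (wild type). The members were 46 listed symbols of this class, taken where their mean over the 12 libraries was at least 1 CPM (counts scaled to a library total of 1000000). This left 42 of the 31301 gene symbols of the count table. Of these, 40 passed the count filter of the test, and Ifi27l2a, whose low level in TSLP cultures was the reason for choosing the list, was described but left out of all counts, so that 39 other members were counted. Marrow cells were kept for 7 days in either 0.3 ng/mL of interleukin-3 (IL-3) or 1 µg/mL of thymic stromal lymphopoietin (TSLP), the latter dose as in the treatment protocol, both recombinant, and the bone marrow-derived basophils (BMBAs) were sorted into FcεRIαhi CD49blo cells, here called immature, and FcεRIαlo CD49bhi cells, here called mature. The 4 groups of 3 libraries (3 cultures each per the study) were thus the immature and the mature cells of IL-3 cultures and those of TSLP cultures. No further genotype or treatment was given in any of them. Whether immature and mature cells of a cytokine were sorted from the same cultures was not stated. The culture is a model made by 1 cytokine at a time, and no group received interferon per the labels. Basophils arise in it beside other marrow cells. The study gates BMBAs as CD200R3-positive, c-Kit-negative cells and defines the fractions named above among them. The sort thus rests on these surface proteins.

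Interferons are secreted proteins that cells release on sensing viral or other foreign nucleic acid. Type I interferons bind the receptor made of IFNAR1 and IFNAR2, whose kinases TYK2 and JAK1 activate transcription factors. A complex that holds STAT2 and IRF9 binds the interferon-stimulated response element (ISRE) in promoters, while interferon-gamma acts through the gamma-activated site (GAS). The induced genes encode sensors of foreign RNA and DNA, proteins that block viral translation, entry or replication, the ubiquitin-like ISG15 with its enzymes, guanylate-binding proteins and parts of the antigen processing machinery. Many are also expressed at a low level in resting leukocytes. IL-3 and TSLP both promote basophil generation, and both signal through Janus kinases.

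Library totals ran from 1720065 to 3685285 counts, and 10861 genes were tested. Rows of ribosomal RNA took 14.7% to 25.0% of the counts in IL-3 libraries and 17.3% to 40.1% in TSLP libraries. TSLP mature replicate 1 stood apart: its counts differed from those of the other TSLP mature libraries by 40.8 and 51.4 times the sampling variance (chi-square per degree of freedom over genes), against 2.08 to 13.1 for the other pairs of replicates. The summed level of 8 neutrophil markers was 706 CPM in it, 22.4 and 34.7 CPM in the other TSLP mature libraries and 263 to 383 CPM in IL-3 mature libraries, and that of 7 B-lineage markers was 182 CPM in it against 21.5 and 22.7 CPM. Basophil markers were present in every library. Their sum ran from 37508 to 40987 CPM in immature and from 9253 to 11559 CPM in mature IL-3 cells, and in TSLP cells from 26603 to 29606 and from 7413 to 10541 CPM. Results are therefore also given without TSLP mature replicate 1. In bulk RNA, fewer cells of a type and less RNA per cell cannot be told apart.

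Promoters of some members that were lower in TSLP than in IL-3 mature cells, and of some that were not, are shown first. The ISRE is a regulatory sequence of part of the class. Sequences are from RefSeq (GRCm38.p6), which gave a window from 250 bases before to 50 bases after the start for 35 of the 46 listed genes. No window was shown for Ifi27l2a, Ifi27, Dhx58, Zbp1, Mx1, Mx2, Oas2, Usp18, Parp9, Parp14 or Rtp4. Windows were searched on both strands for GAAA, any 2 bases and GAAA again, the core of the ISRE, and for TTCNNNGAA, the GAS. The stretch from 160 to 36 bases before the start is printed 5′ to 3′ on the gene's strand, and capitals mark matches to this ISRE core on either strand, which overlap one another in Isg15 and Bst2. Each printed stretch holds such a match, and windows with and without one are counted below. The first 5 genes were lower in TSLP than in IL-3 mature cells and the last 3 were not called.
Ifit1, chr19:34640729-34640853, plus strand: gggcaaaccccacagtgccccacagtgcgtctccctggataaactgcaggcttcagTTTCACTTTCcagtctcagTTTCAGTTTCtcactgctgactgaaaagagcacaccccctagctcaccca
Ifit3, chr19:34583369-34583493, plus strand: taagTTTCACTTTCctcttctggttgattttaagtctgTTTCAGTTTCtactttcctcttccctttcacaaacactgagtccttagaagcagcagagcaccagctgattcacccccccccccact
Isg15, chr4:156200854-156200978, minus strand: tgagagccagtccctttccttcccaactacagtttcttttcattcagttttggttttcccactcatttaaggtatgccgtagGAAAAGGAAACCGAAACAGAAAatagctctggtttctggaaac
Rsad2, chr12:26456488-26456612, minus strand: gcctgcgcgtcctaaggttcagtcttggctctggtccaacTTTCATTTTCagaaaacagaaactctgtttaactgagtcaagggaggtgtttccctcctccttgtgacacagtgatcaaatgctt
Oas3, chr5:120777695-120777819, minus strand: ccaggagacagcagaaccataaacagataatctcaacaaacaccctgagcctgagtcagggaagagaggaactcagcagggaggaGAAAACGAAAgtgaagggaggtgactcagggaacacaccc
Ifitm2, chr7:140955997-140956121, minus strand: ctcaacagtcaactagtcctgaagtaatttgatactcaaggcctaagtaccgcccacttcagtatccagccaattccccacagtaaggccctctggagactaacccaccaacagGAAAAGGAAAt
Bst2, chr8:71537508-71537632, minus strand: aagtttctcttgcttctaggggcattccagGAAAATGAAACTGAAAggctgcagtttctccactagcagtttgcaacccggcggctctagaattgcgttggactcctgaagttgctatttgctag
Gbp7, chr3:142530176-142530300, plus strand: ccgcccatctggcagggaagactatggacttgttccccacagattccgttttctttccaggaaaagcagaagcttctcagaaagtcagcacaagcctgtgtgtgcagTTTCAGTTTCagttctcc

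The ISRE core was found in 19 of the 35 listed genes with a window (54.3%), against 3.99% of 27025 genes of the genome with one. It stood in 7 of 12 tested members that were lower with TSLP in mature cells and had a window, and in 11 of 20 that were not. The GAS letters were found in 12 of the 35 genes (34.3%), against 9.55% of all genes, in 4 of the 12 and in 8 of the 20. A match is a description of letters and not of a bound site. Windows with and without the ISRE core stood among the members that were lower and among those that were not.

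The IFI27 family holds small hydrophobic proteins of intracellular membranes. Ifi27l2a (chromosome 12, 103442167 to 103443680, minus strand, GRCm38) was at 14.0, 9.10 and 9.23 CPM in immature and 59.6, 63.1 and 41.8 in mature libraries with IL-3, and with TSLP at 2.40, 2.72 and 0.339 (immature) and 5.10, 2.54 and 0.919 (mature). The TSLP libraries of both stages lay below every IL-3 library. The difference between TSLP and IL-3 was -4.22 ± 0.40 on the log2 scale in mature and -2.52 ± 0.51 in immature cells (± standard error), given without a test because the list was chosen for it, and the former was -5.01 without TSLP mature replicate 1. Ifi27l2b, its neighbour on the same chromosome (103450898 to 103457223), had 53 counts over the IL-3 mature libraries, against 0 in IL-3 immature and 1 in TSLP immature libraries, and it had 0 counts in TSLP mature libraries. Against a floor of 3 counts over a group, it was at least 23.8-fold lower in TSLP mature than in IL-3 mature cells. The 2 genes share 0.483% of the 50-base stretches of Ifi27l2a, so few reads could come from either.

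Ifi27, a further member of the family, had another order of levels. It was at 31.9, 40.7 and 31.0 CPM in immature and 9.57, 10.2 and 6.74 in mature libraries with IL-3, and with TSLP at 33.8, 27.6 and 30.5 (immature) and 27.7, 9.89 and 8.89 (mature). It was lower in mature than in immature IL-3 cells (log2 fold change -1.96 ± 0.36, edgeR quasi-likelihood test with Benjamini-Hochberg adjustment over all genes, adjusted p = 0.000314), with no overlap. In TSLP cultures the difference was -0.97 ± 0.33 (edgeR, adjusted p = 0.0372), and TSLP mature replicate 1 overlapped the immature libraries. TSLP against IL-3 was not called at either stage (0.81 in mature and -0.17 in immature cells). Without TSLP mature replicate 1 the value in mature cells was -0.0078, and that between TSLP stages was -1.80 (edgeR, adjusted p = 1.86e-05).

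The first comparison asked whether the low level of Ifi27l2a in TSLP cultures was shared by other interferon-stimulated genes in mature cells. It was shared by part of them: Ifitm1, Ifitm3, Ifit2, Rsad2 (viperin), Isg15, Xaf1 and Parp14 were among those called lower, while the tested sensors and guanylate-binding proteins and Tap1 were not called. Of the 39 members, 14 were lower and 1 was higher in TSLP mature than in IL-3 mature cells (edgeR, adjusted p below 0.05, which measures the spread between these cultures). The share called lower was 35.9%, against 11.9% of all tested genes, and the share called higher was 2.56%, against 12.4%. Ifit1, Ifit3 and Oas3, among the 14, passed the count filter through the IL-3 mature group alone, where they are high, so their place in the count was favoured by the filter. Of the 34 members that passed it in at least 2 groups, 11 were lower (32.4%) and 1 was higher (2.94%), against 12.2% and 13.3% of all genes that did so. Of the 30 members with a mean of at least 10 CPM, 10 were lower and 1 was higher (13.4% of all genes at that level were lower and 13.6% higher). The median log2 fold change was -0.45 over the members and 0.09 over all tested genes. It was -0.27 without IL-3 mature replicate 1 and -0.77 without TSLP mature replicate 1, against 0.09 and 0.01 over all genes in the same fits. Leaving out the 3 ribosomal RNA rows turned the split over all genes from 1345 higher and 1289 lower to 1019 higher and 1491 lower, and the members' split stayed at 1 higher and 14 lower.

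**Figure D1:**
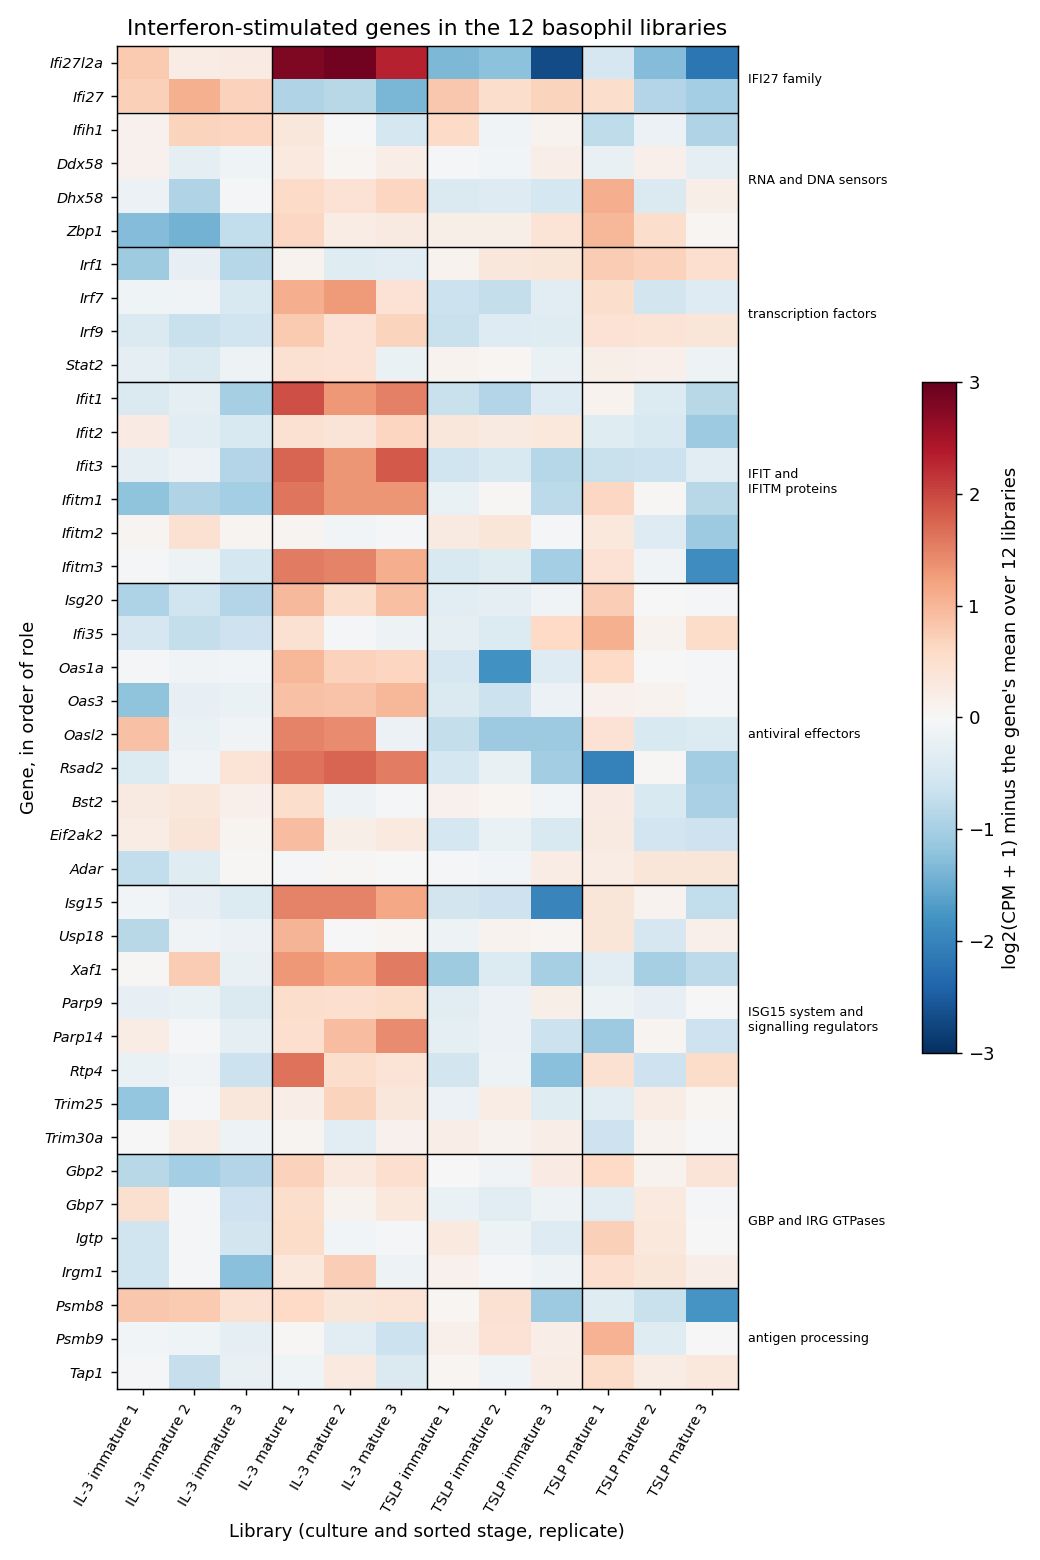
Level of the 40 tested members (rows, by role) in the 12 libraries (columns, by group), as log2(CPM + 1) minus the gene's mean over all libraries (red above, blue below). IL-3 mature libraries are red for Ifi27l2a, most IFIT and IFITM genes, Rsad2, Isg15 and Xaf1, and Ifi27 is blue there.

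Of the IFIT and IFITM genes 5 of 6 were lower, and 3 of the 4 that passed the filter in at least 2 groups. Ifitm1, which encodes a membrane protein that hinders viral entry, was at 4612, 3808 and 3821 CPM in IL-3 mature and 2314, 1545 and 846 in TSLP mature libraries. Each IL-3 library lay above each TSLP library, and the log2 fold change was -1.38 ± 0.30 (edgeR, adjusted p = 0.00426). Ifitm3, its close relative at the same locus on chromosome 7, was at 160.2, 153 and 116 CPM in IL-3 mature and 73.1, 50.3 and 14.1 in TSLP mature libraries. The groups did not overlap, although the TSLP libraries spread widely among themselves (-1.64 ± 0.37, edgeR, adjusted p = 0.00595), and the value was -2.23 without TSLP mature replicate 1. Ifitm2, the third of these genes, was at 184, 164 and 168 against 217, 132 and 80.6 CPM, with overlap, and was not called (-0.26 ± 0.27, edgeR, adjusted p = 0.507). Of the 50-base stretches of Ifitm2, 48.5% also occur in another gene, so that its counts may hold reads of a relative.

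The IFIT proteins bind foreign RNA and block its translation. Their genes had few counts, and they are named, beyond the rule for named genes, because every called member is accounted for. Ifit1 was at 14.2, 8.71 and 10.3 CPM in IL-3 mature and 3.22, 1.98 and 1.23 in TSLP mature libraries. Ifit3 was at 7.09, 5.08 and 7.63 against 0.537, 0.565 and 0.919 CPM, and Ifit2 at 4.61, 4.35 and 5.39 against 2.15, 1.98 and 0.919. No TSLP library reached an IL-3 library for any of these genes. The log2 fold change of Ifit2 was -1.46 ± 0.41 (edgeR, adjusted p = 0.0181). Its call was lost without IL-3 mature replicate 3 or TSLP mature replicate 3 and with no filter on low counts (highest edgeR adjusted p 0.0684). Ifit1 and Ifit3 were at -2.33 ± 0.40 and -3.22 ± 0.48, given as a description because they passed the filter through the IL-3 mature group alone, and 51.2% of the stretches of Ifit3 also occur in its copy Ifit3b.

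Among 9 antiviral effectors, 3 were lower in TSLP mature cells. Rsad2, which encodes viperin, an enzyme that makes a chain-terminating nucleotide, was at 25.2, 27.2 and 23.4 CPM in IL-3 mature and 1.07, 7.63 and 3.06 in TSLP mature libraries. The lowest of the TSLP libraries was replicate 1, and all lay far below the IL-3 libraries (-2.68 ± 0.42, edgeR, adjusted p = 0.000626). The value was -3.67 without TSLP mature replicate 2 and -2.30 without TSLP mature replicate 1, the ends of its range over the alternative settings. Oas3, which makes the activator of the RNA-degrading enzyme RNase L, was at 7.44, 7.25 and 8.08 against 4.03, 3.95 and 3.37 CPM without overlap (-0.99 ± 0.35), and it too passed the filter through the IL-3 mature group alone. Its call was lost in 9 alternative settings, each leave-out of an IL-3 mature library among them, with an adjusted p of up to 0.143 (edgeR). Eif2ak2, the kinase PKR that stops translation on binding double-stranded RNA, was at 52.8, 30.8 and 33.7 against 32.8, 17.8 and 17.5 CPM, with overlap (-0.78 ± 0.26, edgeR, adjusted p = 0.0381), and the call was lost without IL-3 mature replicate 1 or TSLP mature replicate 2 or 3 and with only the groups compared (highest edgeR adjusted p 0.209). Bst2, or tetherin, and Adar, an RNA-editing enzyme, were not called, at -0.44 ± 0.26 and 0.32 ± 0.19. Mx1, a dynamin-like antiviral protein, did not pass the filter, at 7.80, 5.08 and 2.25 against 1.34, 1.41 and 0.306 CPM.

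Of 8 members of the ISG15 system and signalling regulators, 4 were lower (edgeR). Isg15, the ubiquitin-like protein that is attached to newly made proteins, was at 25.2, 25.0 and 19.8 CPM in IL-3 mature and 11.0, 9.04 and 4.60 in TSLP mature libraries. The groups did not overlap (-1.49 ± 0.33, edgeR, adjusted p = 0.00520). Xaf1, a promoter of apoptosis, was at 30.5, 27.6 and 36.8 against 9.13, 5.37 and 6.43 CPM (-2.16 ± 0.30, edgeR, adjusted p = 0.000283). Parp14, an ADP-ribosyltransferase, was at 91.1, 122 and 172 against 29.6, 68.4 and 41.4 CPM (-1.47 ± 0.28, edgeR, adjusted p = 0.00235). For both genes every TSLP library was below every IL-3 library. Parp9, which acts with Dtx3l, was lower as well (-0.69 ± 0.20, edgeR, adjusted p = 0.0214), a call lost without IL-3 mature replicate 1 and with no filter on low counts (edgeR adjusted p 0.0832 at most). Its exons overlap those of Dtx3l. Trim30a and Trim25, ubiquitin ligases of the sensing pathway, were not called, at -0.11 ± 0.21 and -0.44 ± 0.29.

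Of the 4 transcription factors, 1 was lower and 1 was higher. Irf7, which amplifies the type I interferon response, was at 39.0, 45.0 and 24.7 CPM in IL-3 mature and 26.1, 11.9 and 13.5 in TSLP mature libraries, with TSLP mature replicate 1 inside the range of the IL-3 libraries (-1.08 ± 0.28, edgeR, adjusted p = 0.0126), and the call was lost without IL-3 mature replicate 2 and with only the groups compared (edgeR adjusted p 0.0623 at most). Irf1, which drives a set of interferon-gamma-responsive genes, was the only member called higher, at 31.6, 22.5 and 22.9 against 50.5, 48.0 and 42.3 CPM without overlap (0.87 ± 0.22, edgeR, adjusted p = 0.00985). Its call was lost without IL-3 mature replicate 2 or 3 (highest edgeR adjusted p 0.0674). Irf9 and Stat2, the partners that bind the ISRE, were not called, at -0.23 ± 0.17 and -0.22 ± 0.21. Of the 4 tested sensors of foreign nucleic acid 0 were called (edgeR, with 0 at an unadjusted p under 0.05), Ddx58 (RIG-I) at -0.31 ± 0.18 and Zbp1, a sensor of Z-form nucleic acid, at 0.21 ± 0.25.

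Of the 4 tested guanylate-binding and immunity-related GTPases, which attack the vacuoles of pathogens, 0 were called (edgeR, with 0 at an unadjusted p under 0.05). Gbp7 was at -0.33 ± 0.24 and Gbp2 at -0.13 ± 0.19 on the log2 scale. In antigen processing, Psmb8, the immunoproteasome subunit beta 5i, was at 461, 392 and 411 CPM in IL-3 mature and 237, 193 and 89.2 in TSLP mature libraries without overlap (-1.28 ± 0.34, edgeR, adjusted p = 0.0143). Tap1, the peptide transporter, and Psmb9, the subunit beta 1i, were not called, at 0.43 ± 0.21 and 0.65 ± 0.30. Exons of Psmb9 and Tap1 overlap each other, and reads in that stretch cannot be assigned without strand. The 3 genes of this group lie at 1 locus on chromosome 17.

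**Figure D2:**
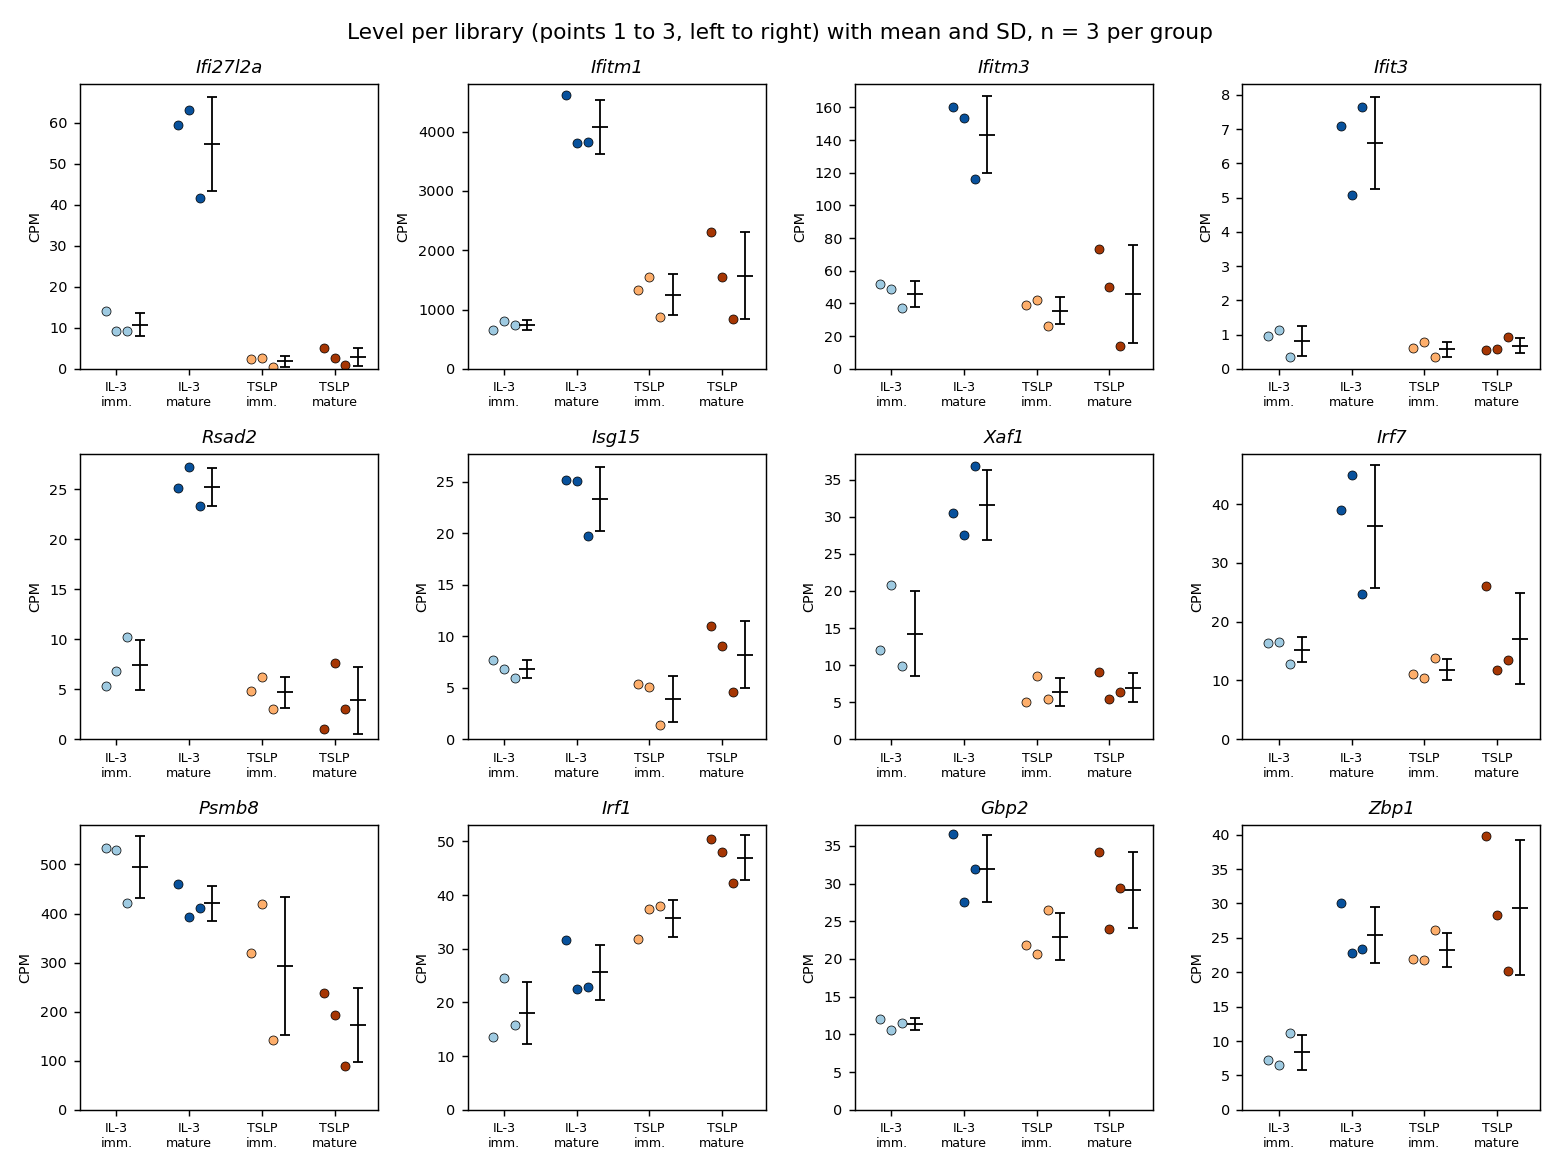
Level in CPM (vertical axes from 0) of 12 members in every library, with points 1 to 3 from left to right in each group and the mean and SD of 3 libraries beside them. Ifi27l2a, Ifitm1, Ifit3, Rsad2, Isg15 and Xaf1 are highest in the 3 IL-3 mature libraries, whereas Irf1 is highest in the TSLP mature libraries.

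Without TSLP mature replicate 1, 20 of 40 tested members were lower and 1 was higher in mature cells, the 15 called before among them (16.5% of all tested genes were then lower and 10.4% higher). The added members were Dhx58, Ifitm2, Isg20, Mx1, Oasl2 and Bst2. Mx1 and Oasl2 had 10 counts or more in IL-3 mature libraries alone, and Ifit1, Ifit3 and Oas3 stayed in the count. The filter thus favoured these members, and the count of those that pass it in at least 2 groups was not made for this fit. Ifitm2 was then at -0.77 (edgeR, adjusted p = 0.0148), Bst2 at -0.91 (edgeR, adjusted p = 0.00502) and Isg20, an RNA exonuclease, at -0.94 (edgeR, adjusted p = 0.00252). Neutrophil and B-lineage markers were high in this library and low in the other TSLP mature libraries, and their part in the members' levels was not tested. The monocyte markers summed to 495 to 832 CPM in IL-3 mature and to 627, 682 and 1549 CPM in TSLP mature libraries. Of the plasmacytoid dendritic cell markers, Cox6a2 was at 0 in all libraries and Siglech at no more than 1.88 CPM, while the 5-gene sum, Tcf4 included, was 2.90 to 10.8 CPM over all groups. The B-lineage sum was 2.13 to 3.26 CPM in IL-3 mature libraries, below each TSLP mature library, and its part was not tested. Mast cell and T and NK sums were at most 8.86 and 2.69 CPM, and the eosinophil sum was 21.0 to 26.6 in IL-3 mature and 29.4 to 50.8 CPM in TSLP mature libraries, with Epx near 0.

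In immature cells few members were called, Xaf1 lower and Zbp1, Gbp2 and Irf1 higher with TSLP. Of the 39, 1 was lower and 3 were higher than in IL-3 immature cells (5.9% of all tested genes were lower and 7.38% higher), and the median log2 fold change was 0.03, against 0.04 over all genes. Xaf1 was the member called lower, at 12.1, 20.8 and 9.89 CPM in IL-3 immature and 5.09, 8.56 and 5.42 in TSLP immature libraries (-1.20 ± 0.33, edgeR, adjusted p = 0.0232). The groups did not overlap, yet the call was lost without IL-3 immature replicate 2 or TSLP immature replicate 1 or 3 (highest edgeR adjusted p 0.160). Zbp1 was at 7.25, 6.54 and 11.2 CPM in IL-3 and 21.9, 21.8 and 26.1 in TSLP immature libraries (1.47 ± 0.28, edgeR, adjusted p = 0.00326). Gbp2 was at 12.1, 10.5 and 11.5 against 21.9, 20.6 and 26.4 CPM (1.02 ± 0.21, edgeR, adjusted p = 0.00600). Irf1 was at 13.5, 24.5 and 15.8 against 31.7, 37.4 and 38.0 CPM (0.96 ± 0.23, edgeR, adjusted p = 0.0110). For each of the 3 every TSLP library was above every IL-3 library. The call of Irf1 was lost without IL-3 immature replicate 1 or 3 or TSLP immature replicate 3 (highest edgeR adjusted p 0.058). Irf1 was thus called higher with TSLP at both stages, in comparisons that share no library but may share cultures.

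The genes that were low in TSLP mature cells had mixed differences in immature cells, none of them called except Xaf1. Ifitm1 was at 653, 814 and 743 CPM in IL-3 and 1328, 1554 and 875 in TSLP immature libraries, all of the latter being higher, and was not called (0.77 ± 0.29, edgeR, adjusted p = 0.0961), although it was without TSLP mature replicate 1 (0.74, edgeR, adjusted p = 0.0309). Isg15 was at 7.73, 6.83 and 5.93 against 5.39, 5.06 and 1.36 CPM, with every TSLP library below every IL-3 library (-0.77 ± 0.42, edgeR, adjusted p = 0.241). Eif2ak2 was at -0.64 ± 0.27 (edgeR, adjusted p = 0.123), also with every TSLP library below every IL-3 library. Without TSLP mature replicate 1 it was called lower (-0.68, edgeR, adjusted p = 0.0291). Ifitm3, Rsad2 and Parp14 were at -0.36 ± 0.39, -0.70 ± 0.47 and -0.33 ± 0.29 on the log2 scale. Psmb8 was at 534, 529 and 422 against 319, 419 and 142 CPM (-0.76 ± 0.34, edgeR, adjusted p = 0.154).

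**Figure D3:**
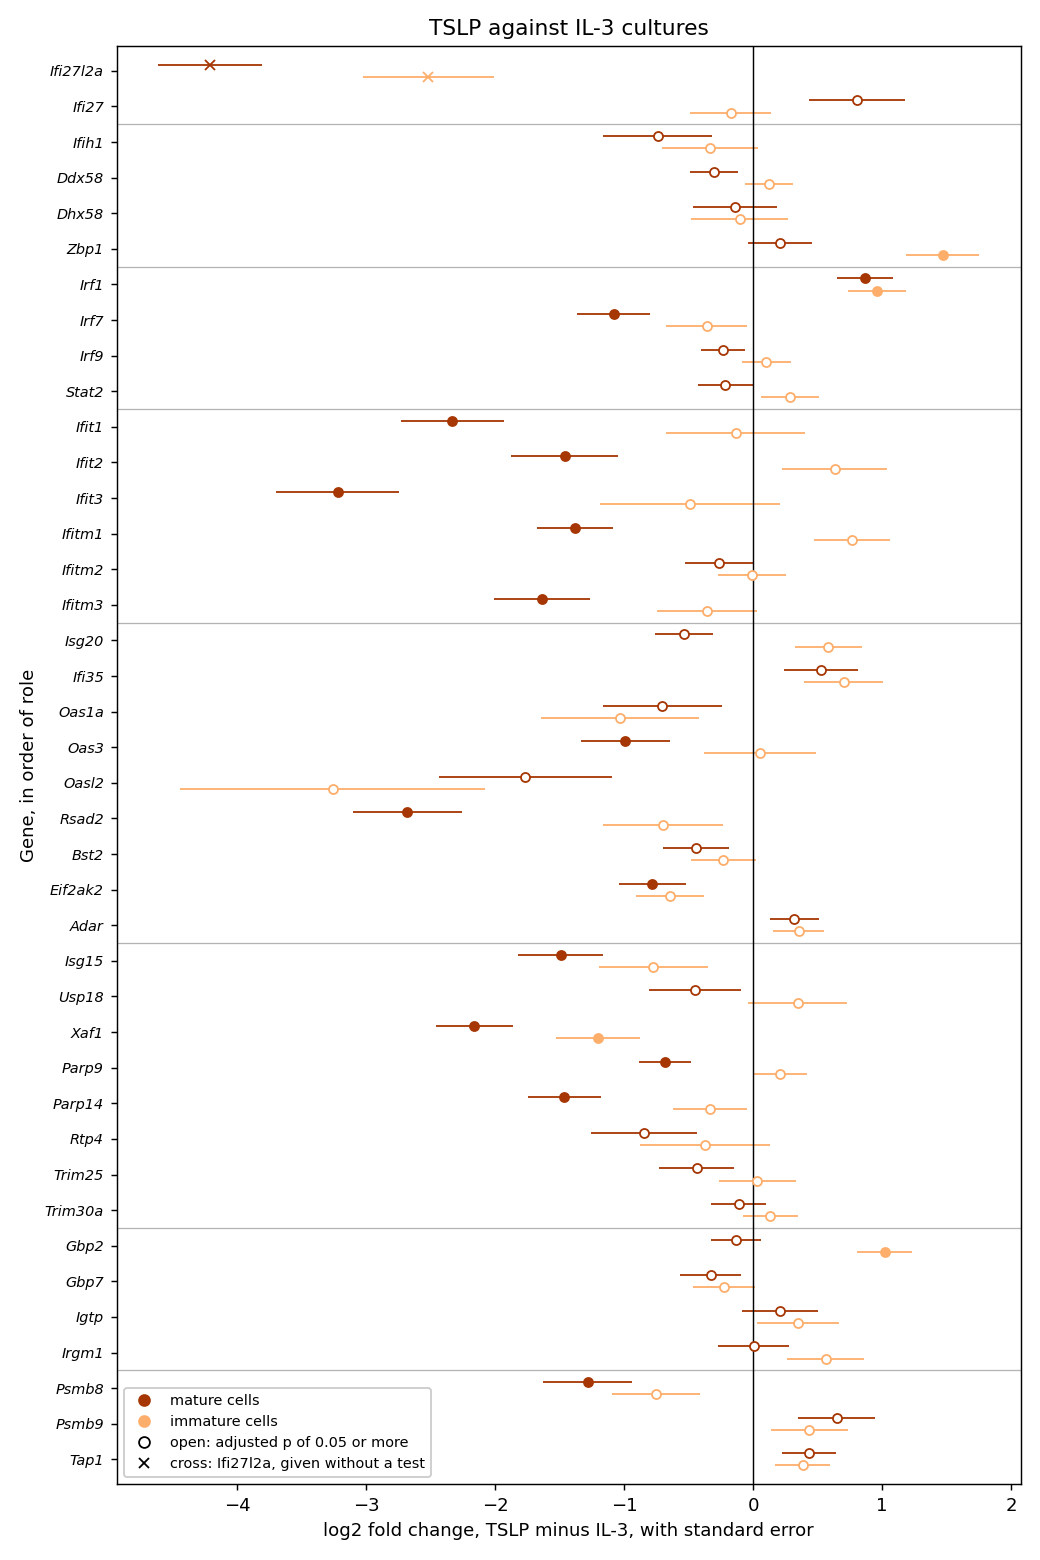
Log2 fold change of TSLP minus IL-3 with its standard error for the 40 tested members, in mature (dark) and immature (light) cells, where filled points have an adjusted p under 0.05 (edgeR) and crosses mark Ifi27l2a, given without a test. The mature points of the IFIT, IFITM and ISG15 groups lie left of 0, and the immature points lie on both sides of it.

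Between stages, part of the interferon-stimulated genes rose with maturation in IL-3 cultures, Ifitm1, Isg15, Ifitm3 and Rsad2 among them, while others, such as Bst2, Ifitm2 and the antigen processing genes, were not called. Of the 39 members, 19 were higher and 1, Ifi27, was lower in mature than in immature IL-3 cells (24.1% of all tested genes were higher and 22.1% lower). Of the 30 members with a mean of at least 10 CPM, 15 were higher and 1 was lower (28.1% of all genes at that level were higher and 21.7% lower). Of the 34 that passed the filter in at least 2 groups, 16 were higher (47.1%) and 1 was lower (2.94%), against 25.3% and 22.8% of all genes that did so. The median over the 39 was 0.86, against 0.06 over all genes. Called higher were 4 of 6 IFIT and IFITM genes, 5 of 8 in the ISG15 group, 3 of 4 transcription factors, 3 of 9 effectors, 2 of 4 sensors and 2 of 4 GTPases, but 0 of the 3 antigen processing genes (edgeR, with 0 at an unadjusted p under 0.05). Ifit1, Ifit3 and Oas3, among these, passed the filter through the IL-3 mature group alone, where they are high. Of the 4 IFIT and IFITM genes that passed it in at least 2 groups, 2 were higher. The IL-3 mature libraries are the same as in the comparison with TSLP, so the differences of a gene in these comparisons are not independent. Between these stages the neutrophil markers summed to 728 to 802 CPM in immature, mostly Mpo, and to 263 to 383 CPM in mature cells, and the monocyte markers to 158 to 293 and 495 to 832 CPM. Their part in the result was not tested.

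Ifitm1 was at 653, 814 and 743 CPM in IL-3 immature libraries, and the rise to the mature level was 2.47 ± 0.31 on the log2 scale (edgeR, adjusted p = 7.06e-06). Isg15 rose by 1.78 ± 0.35 (edgeR, adjusted p = 0.000589) and Ifitm3 by 1.65 ± 0.38 (edgeR, adjusted p = 0.00198). Rsad2 was at 5.31, 6.83 and 10.2 CPM in IL-3 immature libraries and rose by 1.73 ± 0.40 (edgeR, adjusted p = 0.00197). Each of these genes was higher in all mature than in all immature IL-3 libraries. Isg20 was at 10.6, 13.7 and 10.9 CPM in immature and 41.8, 30.5 and 40.4 in mature libraries (1.66 ± 0.25, edgeR, adjusted p = 4.86e-05). Zbp1 was at 7.25, 6.54 and 11.2 against 30.1, 22.9 and 23.4 CPM (1.60 ± 0.28, edgeR, adjusted p = 0.000241). Neither gene's groups overlapped. The remaining called members, beyond the rule for named genes, were Ifit3 (2.96), Ifit1 (2.65), Oas3 (1.65), Gbp2 (1.50), Rtp4 (1.43), Irf7 (1.26), Irf9 (1.25), Xaf1 (1.12), Parp14 (1.03), Dhx58 (0.97), Irgm1 (0.95), Parp9 (0.86) and Stat2 (0.58), of which Ifit1, Ifit3 and Oas3 passed the filter through the IL-3 mature group alone. Stat2 and Irgm1 overlapped between the stages, and the calls of Stat2 and Dhx58 were lost in 16 and 12 alternative settings (highest edgeR adjusted p 0.2 and 0.207). The call of Rtp4 was lost without IL-3 immature replicate 3 or IL-3 mature replicate 1, that of Irgm1 without IL-3 immature replicate 3 or IL-3 mature replicate 2, and that of Parp14 without IL-3 mature replicate 3 (highest edgeR adjusted p 0.133, 0.132 and 0.0628). Bst2, Ifitm2, Gbp7, Psmb8 and Tap1 were among those not called, at -0.13 ± 0.25, -0.22 ± 0.27, 0.32 ± 0.24, -0.23 ± 0.34 and 0.27 ± 0.21.

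In TSLP cultures, 1 member was higher and 2 were lower in mature than in immature cells (12.9% of all tested genes were higher and 12.2% lower), and the median was 0.29, against 0.03 over all genes. Irf9 was the member called higher, at 16.2, 19.8 and 20.3 CPM in immature against 36.0, 35.6 and 34.3 in mature libraries (0.91 ± 0.18, edgeR, adjusted p = 0.00141). It was higher in IL-3 cultures as well, at 19.3, 16.2 and 17.1 against 46.1, 35.9 and 42.7 CPM, and the 2 comparisons share no library. Ifi27 was lower, as given above, and so was Ifit2, at 4.19, 3.89 and 4.07 against 2.15, 1.98 and 0.919 CPM (-1.23 ± 0.41, edgeR, adjusted p = 0.0387). Both of these calls were lost without TSLP immature replicate 1 or 2, which left Irf9 alone, and in 7 settings for Ifi27 and 9 for Ifit2 in all (highest edgeR adjusted p 0.136 for Ifi27 and 0.131 for Ifit2). Without TSLP mature replicate 1, 6 members were lower and 1 was higher (19% of all tested genes were then lower), with Ifitm2, Bst2, Psmb8 and Psmb9 added, and the median was 0.02. Psmb9 turned from 0.09 to -0.56 (edgeR, adjusted p = 0.0475). Ifitm1 was at 0.32 ± 0.29, Isg15 at 1.06 ± 0.40 and Rsad2 at -0.25 ± 0.50, none of them called.

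**Figure D4:**
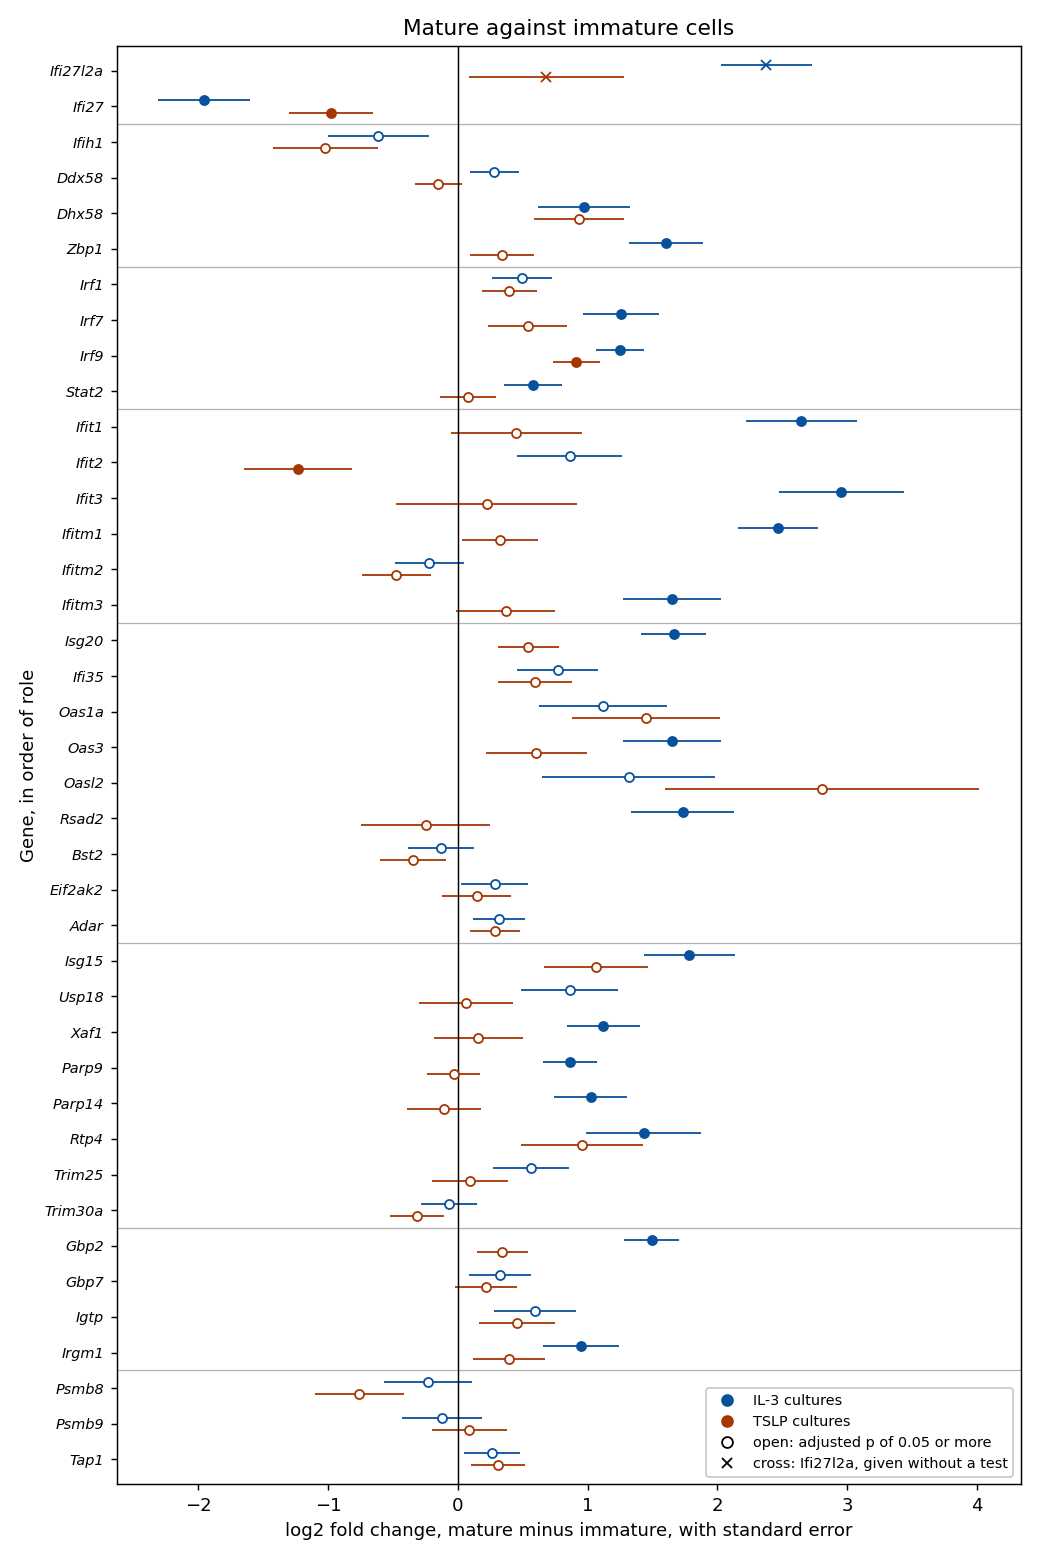
Log2 fold change of mature minus immature cells with its standard error for the 40 tested members, in IL-3 (blue) and TSLP (brown) cultures, where filled points have an adjusted p under 0.05 (edgeR) and crosses mark Ifi27l2a, given without a test. In IL-3 cultures 19 points are filled on the right and Ifi27 on the left, and in TSLP cultures only Irf9, Ifi27 and Ifit2 are filled.

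The difference between these effects was tested by the interaction, that is, the TSLP minus IL-3 difference in mature minus that in immature cells, which equals the difference of the stage effects. It was called for 2 of the 39 members (4.18% of all tested genes, in either direction), both below 0 (2.14% of all tested genes). Ifitm1 had an interaction of -2.14 ± 0.42 (edgeR, adjusted p = 0.00818), a call kept in every alternative setting. For Gbp2 it was -1.15 ± 0.29 (edgeR, adjusted p = 0.0336), and the call was lost in 10 settings (highest edgeR adjusted p 0.0888). Gbp2 was at 36.5, 27.6 and 31.9 CPM in IL-3 mature and 34.1, 24.0 and 29.4 in TSLP mature libraries, which overlapped, so that its low level in IL-3 immature cells stood apart from the other groups. The interaction was below 0 in 34 of the 39 members, against 5587 of all 10861 tested genes. Its median was -0.47 over the members and -0.02 over all genes. Of the 34 members that passed the filter in at least 2 groups, 31 were below 0, against 4911 of 9501 genes that did so. In the IFIT and IFITM group all 6 were below 0 and 1 was called, with Ifit1 and Ifit3 in the group only through the IL-3 mature libraries. Without TSLP mature replicate 1, 8 members were called, all below 0 (4.33% of all genes were then called below 0). The added members were Zbp1, Irf7, Ifit1, Ifit2, Ifitm3 and Isg20, of which Isg20 was at -1.48 (edgeR, adjusted p = 0.00470) and Ifitm3 at -1.84 (edgeR, adjusted p = 0.0274). Over all 5 comparisons, 15 of the 39 members were called in none (Ifih1, Ddx58, Ifitm2, Ifi35, Oas1a, Oasl2, Bst2, Adar, Usp18, Trim25, Trim30a, Gbp7, Igtp, Psmb9 and Tap1). Their TSLP minus IL-3 differences in mature cells ran from -1.77 for Oasl2 to 0.65 for Psmb9.

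Listed genes under the limit of 1 CPM were Ifi44, Mx2, Oasl1 and Oas2, at 0.167, 0.326, 0.798 and 0.877 CPM, and the members nearest above it were Oasl2 and Gbp3, at 1.60 and 1.71 CPM. Over the 3 IL-3 mature libraries these 4 genes had 4, 8, 12 and 13 counts, and over the 3 TSLP mature libraries 1, 1, 8 and 12. Gbp3 and Mx1 were members but did not pass the filter on counts. Of the 39 counted members, Ifit1, Ifit3, Oas1a and Oas3 passed it through 1 group and Oasl2 through none alone.

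A list of 154 further genes of the pathway was examined, of which 98 were tested. Of the 98, 70 were other interferon-stimulated genes, taken up again below. The others included receptors, kinases, inhibitors and sensing genes. In TSLP against IL-3 mature cells 19 of the 98 were lower and 9 higher, against 11.9% and 12.4% of all tested genes. The 70 other interferon-stimulated genes held 14 of the 19 and 6 of the 9. In immature cells 3 of the 98 were lower and 12 higher, against 5.9% and 7.38% of all genes. Between IL-3 stages 47 were higher and 7 lower (24.1% and 22.1% of all genes), and between TSLP stages 22 were higher and 3 lower (12.9% and 12.2%). The interaction was called below 0 for 11 (2.14% of all genes) and above 0 for 0 (2.04%). Transcripts of interferons themselves were at the limit of detection. Of 21 listed interferon genes 13 were analysed, and these had 14 counts among 36006193 over all libraries, with 4 of Ifnb1 in a single library as the highest count.

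Receptor genes were expressed in all groups. Ifnar1, the first chain of the type I receptor, was at 44.4, 40.4 and 43.8 CPM in immature and 82.6, 75.1 and 79.0 in mature libraries with IL-3, and with TSLP at 48.2, 37.7 and 41.7 (immature) and 54.8, 79.1 and 76.9 (mature). It rose with maturation in IL-3 (0.88 ± 0.18, edgeR, adjusted p = 0.000778) and TSLP cultures (0.72 ± 0.18, edgeR, adjusted p = 0.00702, up to 0.064 without TSLP immature replicate 2), and TSLP against IL-3 was not called in mature cells (-0.17 ± 0.17). Ifnar2, the second chain, rose in IL-3 cultures (0.88 ± 0.18, edgeR, adjusted p = 0.000850) and was at -0.31 ± 0.18 between TSLP and IL-3 mature cells. Ifngr1, the ligand-binding chain for interferon-gamma, was called in no comparison. Ifngr2, its signalling partner, was at 29.5, 29.9 and 26.7 CPM in immature and 108, 118 and 110.5 in mature libraries with IL-3, and with TSLP at 38.3, 37.7 and 36.6 (immature) and 64.2, 53.4 and 48.7 (mature). Every TSLP mature library was below every IL-3 mature library (-1.01 ± 0.16, edgeR, adjusted p = 0.000568). Il10rb, shared by the receptors of interferon-lambda and interleukin-10, was at 63.8, 56.6 and 64.7 CPM in IL-3 mature and 26.6, 27.4 and 23.3 in TSLP mature libraries (-1.26 ± 0.22, edgeR, adjusted p = 0.00137).

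The kinases Jak1 and Jak2 rose with IL-3 maturation, by 0.88 ± 0.20 and 1.16 ± 0.22 (edgeR, adjusted p = 0.00181 and 0.000489). Neither was called between TSLP and IL-3 mature cells, at 0.17 ± 0.20 and -0.11 ± 0.22. Tyk2 was called in no comparison. It was at 56.7, 63.8 and 75.9 CPM in IL-3 mature and 77.1, 74.9 and 54.2 in TSLP mature libraries (0.07 ± 0.19). The inhibitors Socs1 and Socs3, which block Janus kinases, were among the genes with the largest changes. In IL-3 cultures Socs3 rose with maturation by 5.54 ± 0.21 (edgeR, adjusted p = 7.33e-11). Socs1 was at 5.80, 7.40 and 3.63 CPM in IL-3 immature and 27.5, 22.6 and 30.5 in TSLP immature libraries (2.24 ± 0.26, edgeR, adjusted p = 5.2e-05). Socs3 was at 5.31, 5.69 and 5.60 against 26.0, 36.2 and 35.9 CPM (2.54 ± 0.21, edgeR, adjusted p = 1.16e-06). In mature cells Socs3 was at 256, 247 and 279.8 CPM with IL-3 and 146, 159.9 and 162 with TSLP (-0.74 ± 0.16, edgeR, adjusted p = 0.00428), whereas Socs1 was not called (0.29 ± 0.20). Both genes were thus higher with TSLP in immature cells, where the members' median was 0.03.

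**Figure D5:**
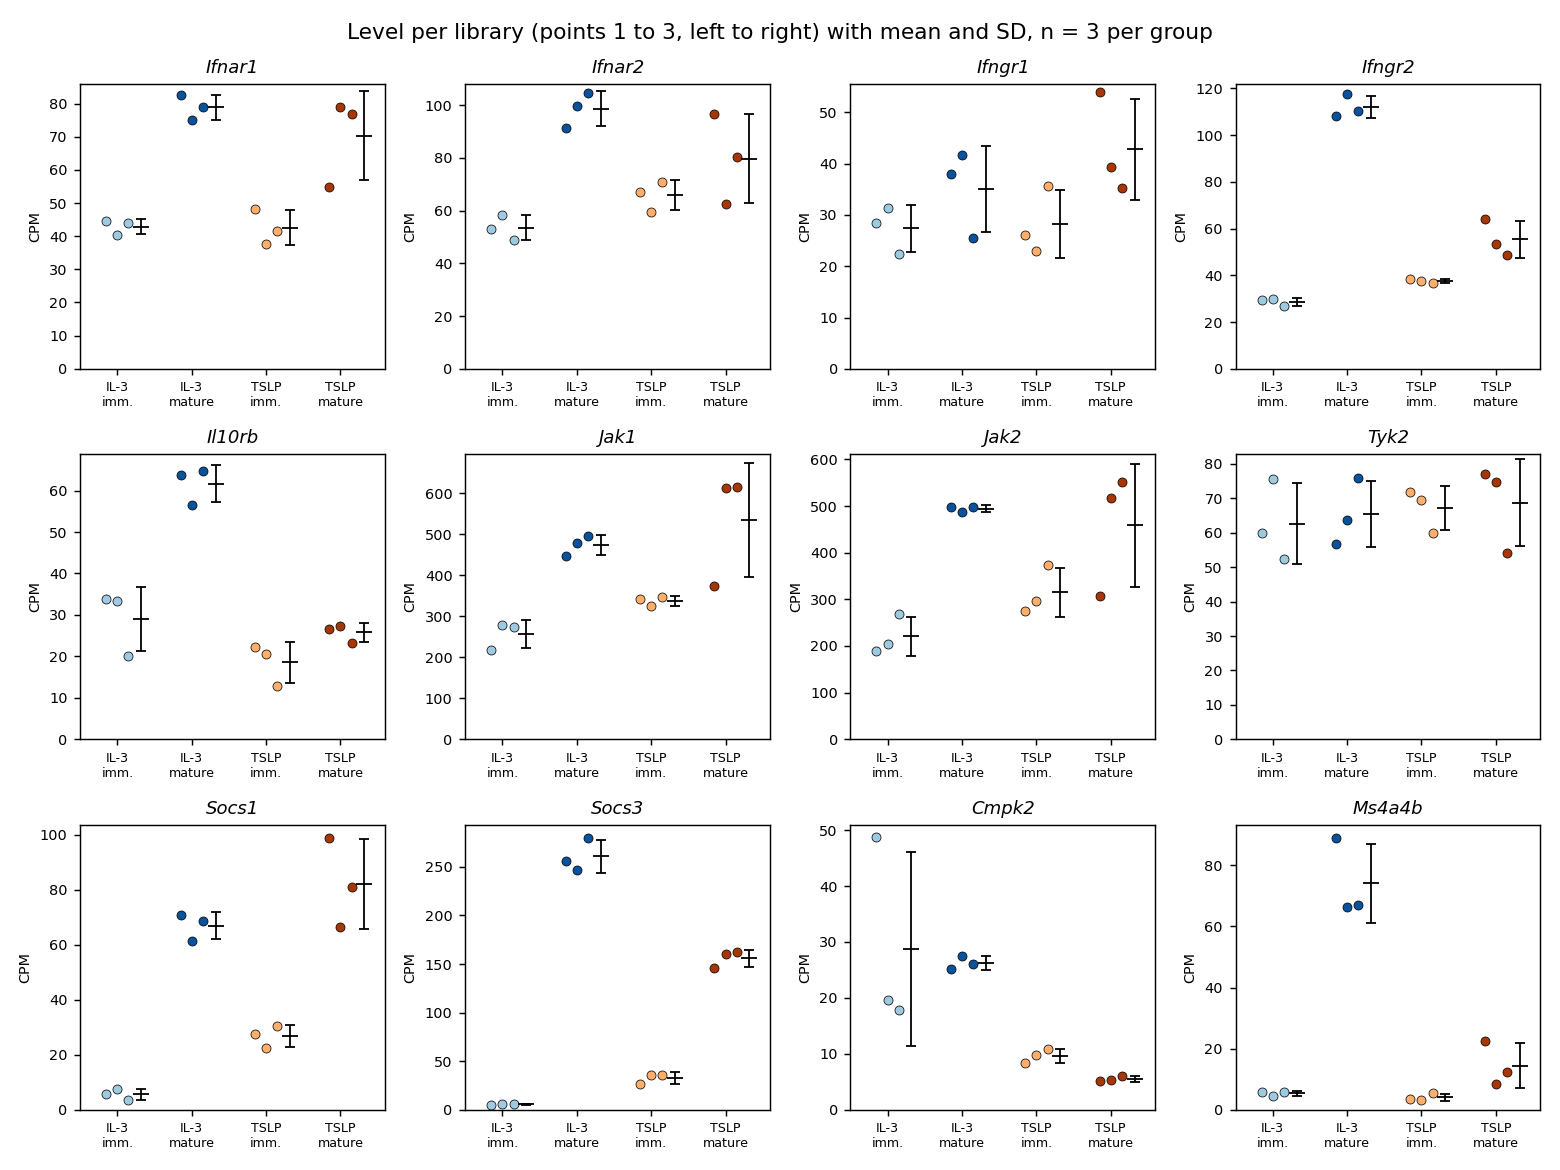
Level in CPM (vertical axes from 0) of 12 pathway genes in every library, with points 1 to 3 from left to right in each group and the mean and SD of 3 libraries beside them. Ifngr2, Il10rb and Ms4a4b are highest in the 3 IL-3 mature libraries, Socs1 is lowest in IL-3 immature cells, and Socs3 lies between 5.31 and 5.69 CPM in IL-3 immature cells.

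The 70 further interferon-stimulated genes tested outside the member list are part of the 98 above. Of the 70, 14 were lower and 6 were higher in TSLP than in IL-3 mature cells. These shares were 20% and 8.57%, against 11.9% and 12.4% of all tested genes, with a median of -0.19 against 0.09. Ifi27l2b, with 53 counts over the IL-3 mature libraries and at most 1 in another group, could pass the filter through the IL-3 mature group alone. The shares of these 70 were not restricted to genes that pass it in at least 2 groups. Besides Ifi27l2b, the genes named by the rule as lower were Ms4a4b, a membrane protein of the MS4A family, and Cmpk2, a mitochondrial nucleotide kinase whose gene lies beside Rsad2. Ms4a4b was at 89.0, 66.4 and 66.9 CPM in IL-3 mature and 22.6, 8.47 and 12.3 in TSLP mature libraries (-2.35 ± 0.28, edgeR, adjusted p = 8.35e-05). Cmpk2 was at 25.2, 27.6 and 26.0 against 5.10, 5.37 and 6.13 CPM (-2.24 ± 0.34, edgeR, adjusted p = 0.000550). It was lower with TSLP in immature cells too, at 48.8, 19.6 and 17.8 against 8.38, 9.73 and 10.8 CPM (-1.53 ± 0.33, edgeR, adjusted p = 0.00632), as was Slfn5 (-1.24 ± 0.24, edgeR, adjusted p = 0.00309). Among genes that were higher with TSLP in mature cells were Mavs, the adaptor of the RNA sensors (1.39 ± 0.38, edgeR, adjusted p = 0.0153), and the mitochondrial regulator Nlrx1 (1.08 ± 0.22, edgeR, adjusted p = 0.00305). The call of Mavs was lost without IL-3 mature replicate 2 (edgeR adjusted p 0.0701). The thiol reductase Ifi30 was called higher as well (1.20 ± 0.40, edgeR, adjusted p = 0.0412), with 12.1, 14.9 and 8.98 CPM in IL-3 mature and 53.2, 15.3 and 14.1 in TSLP mature libraries, which overlapped. Without TSLP mature replicate 1 its difference was 0.20 (edgeR adjusted p 0.545), and the call was lost in 14 settings in all. The list thus held genes that were lower and genes that were higher with TSLP, as the members did.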

How the data were processed

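RNA from 12 sorted basophil populations was amplified as whole transcriptomes, starting from poly(A) RNA on oligo(dT) beads, and sequenced on the Ion Proton system. The authors trimmed reads with Cutadapt, aligned them to reference RNA with Bowtie2 and deposited raw counts per gene symbol; their text names GRCm38, and the submitters' processing notes list GRCm39 and mm10. The counts were not stated to use strand. Amplified reads carry no molecular identifiers, so counting error is a lower limit. A row without a name, taken to hold the column totals, was left out. No deposited column went unmapped (0).

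Counts were scaled by TMM and tested with edgeR 4.0.16 (limma 3.58.1, R 4.3.3): a filterByExpr filter (minimum 10 counts, total 15), 1 quasi-likelihood fit over the 4 groups, contrasts between cytokines within a stage, between stages within a cytokine and their interaction, and Benjamini-Hochberg adjustment over all tested genes at 0.05. The study normalized with TCC, which was not used here. CPM values are on TMM-scaled library sizes, except those of the rule, which are relative to the plain library total. The main edgeR fit was tried on simulated data for TSLP against IL-3 in mature cells. The other comparisons and the alternative settings were not tried in this way. DESeq2 1.42.0, other scalings and filters, a replicate block, fits of only the groups compared, leaving out each library and, chosen after seeing the data, leaving out 3 ribosomal RNA rows and members under 10 CPM were the alternatives.

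The members and lists were chosen with earlier results of these data known. Named were Ifi27l2a and Ifi27, up to 6 called members per direction and comparison with a mean of at least 5 CPM by size of change, members with a called interaction, up to 2 uncalled members per role, up to 3 called pathway genes per direction, the receptor and kinase genes, and the members under 1 CPM. Other genes named were chosen after their values were seen, so that each called member is accounted for. Of the pathway list 1 gene is counted but not reported here.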

Additional observations from a re-analysis of the deposited data

Results flagged for a closer look

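The effect of TSLP differed between mature and immature cells, by the interaction term across all genes, for 2 of 39 members and 11 of 98 further genes of the pathway, all below 0 (edgeR, adjusted p under 0.05), against 2.14% of all tested genes called below 0 and 4.18% in either direction. Ifitm1 was at -2.14 and Gbp2 at -1.15 on the log2 scale (edgeR, adjusted p = 0.00818 and 0.0336). Among the inhibitors, Socs3 was at -3.29 and Socs1 at -1.95 (edgeR, adjusted p = 4.5e-06 and 0.00329), and Nlrc3, a negative regulator of nucleic acid sensing, at -1.56 (edgeR, adjusted p = 0.0337). Of the receptor genes, Ifngr2 was at -1.40 (edgeR, adjusted p = 0.00251). Samhd1, which degrades deoxynucleotides, was at -1.32 (edgeR, adjusted p = 0.00626) and Ube2l6, the conjugating enzyme of ISG15, at -1.95 (edgeR, adjusted p = 0.0143). Cd69, an early activation marker, was at -1.45, Slfn2 at -1.15, Ddx60 at -1.99, Ms4a4b at -1.95 and H2-D1, a class I histocompatibility antigen, at -0.93 (edgeR, adjusted p = 0.0105, 0.0169, 0.0329, 0.0406 and 0.0474). The calls of H2-D1, Ms4a4b, Nlrc3, Ddx60, Slfn2 and Ube2l6 were lost in 14, 13, 8, 6, 2 and 1 alternative settings, while those of Socs1, Socs3, Ifngr2, Samhd1 and Cd69 were kept in all settings run.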

How the results depend on the processing

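The members called (Ifi27l2a left out) were 15 in mature cells for TSLP against IL-3 and 4 in immature cells. They were 20 between IL-3 stages, 3 between TSLP stages and 2 for the interaction. Over all genes, as higher and lower, calls were 1345 and 1289, 802 and 641, 2615 and 2404, 1403 and 1329, and 222 and 232. With no filter on low counts the first member count was again 15, but as 12 lower and 3 higher in place of 14 and 1. The last 4 member counts then became 7, 21, 5 and 5. Over all genes the first comparison then had 1438 higher and 1342 lower. The last 4 had 769 and 948, 2318 and 2797, 1249 and 1637, and 365 and 309. With only the groups compared the TSLP stages gave 1 member, and calls over all genes were not counted for these fits. Leaving out 1 library gave 12 to 21 members in mature cells and 2 to 6 in immature cells (2 without TSLP immature replicate 3). It gave 17 to 22 between IL-3 stages. Between TSLP stages it gave 1 to 7 (1 without TSLP immature replicate 1 or 2, 7 without TSLP mature replicate 1). For the interaction it gave 1 to 8 (8 without TSLP mature replicate 1). Calls over all genes moved too. As higher and lower, they were 363 and 225 in immature cells without TSLP immature replicate 3. Without TSLP mature replicate 1 they were 1146 and 1822 in mature cells. Between TSLP stages they were 1361 and 2095 without the same library, and for the interaction 246 and 477. Without that library Psmb9 between TSLP stages turned from 0.09 to -0.56 (edgeR, adjusted p = 0.0475), the lowest of its leave-one-out values, the highest being 0.30, and the cause was not tested. Under DESeq2's Wald test 14 members were called in mature cells and 18 between IL-3 stages. Over all genes that test called 1184 higher and 1353 lower in mature cells, and 2288 and 2500 between IL-3 stages. In every setting 9 of the 15, 2 of the 4, 15 of the 20, 1 of the 3 and 1 of the 2 stayed called. The like share over all genes was not computed.

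Neither the labels nor the methods say that replicate numbers pair the libraries. Of 18 same-numbered pairs of groups, 7 deviated together with r over 0.1 (lowest -0.077, highest 0.388). Pairs with different numbers were not computed for reference, so these values cannot settle whether the libraries were paired. With the replicate block the members called were 15, 6, 21, 6 and 3 in the order above. Over all genes calls were 1421 and 1429, 974 and 919, 2753 and 2495, 1525 and 1542, and 271 and 286 (higher and lower). Depth of 1720065 to 3685285 counts leaves members of few CPM, the IFIT genes among them, on few counts per library. Mx1 and Gbp3 passed the filter in some alternative settings alone, and 4 listed genes under 1 CPM were not members.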
